A study of Mus musculus with 6 samples.

Results

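The genes described here encode 40 proteins that write, read or erase silencing marks on chromatin or that deposit histones. They were listed by function: the Polycomb complexes, DNA methylation, heterochromatin, histone demethylases and deacetylases, and histone chaperones. Earlier results of these data were known when this list and the others used here were chosen. A listed gene was read where the platform annotation paired a probe set with that symbol alone, from the probe set with the highest mean signal over the 6 arrays. This gave 39 of the 40 genes, out of 18194 genes read in all. Suv39h1, a heterochromatin methyltransferase gene, had no such probe set and was not analysed here.

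RNA came from murine hepatic stellate cells, the liver pericytes that store vitamin A and turn into matrix-producing myofibroblasts after injury, and was hybridised to Affymetrix arrays. In the proliferating group, of 3 arrays, doxycycline at 1 ug/ml had been given and p53 was knocked down. In the senescent group, also of 3 arrays, the treatment label reads control and p53 was expressed. Both groups carried CMV-rtTA;TRE-GFP-shRNA.p53.1224 on a C57Bl/6 background, in which doxycycline lets a transactivator driven by the CMV promoter switch on a green fluorescent marker with a hairpin RNA against p53. Doxycycline, loss of p53 and continued division therefore came together in the same arrays, and their shares in a difference cannot be told apart. The hairpin's target is not analysed here. Nothing in the labels says that arrays of a group came from separate cultures or animals. The p-values thus set a difference only against the spread among these arrays, and that spread may be technical. In bulk RNA, fewer cells of a state and less RNA per cell cannot be told apart.

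Array medians lay between 6.15 and 6.19 (log2 signal), which the normalization makes nearly equal. Of 10 stellate and myofibroblast marker genes 8 read above background (5.57, below which 95% of olfactory receptor probe sets lay), with Acta2 at 14.45 in proliferating and 14.57 in senescent cells. Of the 10, Pdgfrb (1.30), Hand2 (0.85), Col1a1 (0.56) and Col1a2 (0.49) were higher in proliferating cells, as log2 differences, and their summed signal with the rest of the list was 16.80 to 16.81 on proliferating and 16.66 to 16.67 on senescent arrays. Lrat and Reln, genes of vitamin A storing cells, were below background in both groups. The summed signal (log2 of the sum) of 6 hepatocyte markers was 8.52 to 8.79 on proliferating and 8.73 to 8.93 on senescent arrays, and that of 6 macrophage markers 8.86 to 8.99 on proliferating and 9.09 to 9.15 on senescent arrays. For 6 endothelial markers it was 8.08 to 8.32 on proliferating and 8.32 to 8.34 on senescent arrays, and for 4 biliary markers 10.97 to 11.03 on proliferating and 11.30 to 11.45 on senescent arrays. For 4 lymphocyte markers it was 7.11 to 7.16 on proliferating and 7.15 to 7.29 on senescent arrays. Among these markers of other cell types Apob, Csf1r, Cdh5 and Krt19 were called lower in proliferating cells and Krt7 higher. By sign, 3 of 4 biliary, 3 of 6 hepatocyte, 3 of 6 endothelial, 1 of 6 macrophage and 0 of 4 lymphocyte markers were higher in proliferating cells. The biliary sum is mostly Krt19, and Krt7 (0.69), Epcam (0.24) and Sox9 (0.23) went the other way, with Epcam and Sox9 not called. On the scale of spike-in controls Csf1r and Krt19 turned to 0.25 and 0.01. By mean signal 4 of 6 hepatocyte, 4 of 6 macrophage and all 4 biliary markers read above background, with Krt19 at 10.86. So did 1 of 6 endothelial and 1 of 4 lymphocyte markers. Alb, Adgre1, Ptprc and Pecam1 were among those below background in both groups. The part of the stellate markers and of the others in the differences below was not tested. The poly-A spike-in controls, RNAs added before labelling, averaged 10.61 ± 0.10 (SD, n = 3) on proliferating and 11.21 ± 0.27 on senescent arrays, with senescent replicate 3 the highest, at 11.51.

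Polycomb repressive complex PRC2 methylates histone H3 at developmental genes, and PRC1 binds that mark and ubiquitinates histone H2A. Heterochromatin rests on another methyl mark of histone H3, which HP1 proteins bind, and on DNA methylation copied at each replication. In dividing fibroblasts Polycomb proteins hold down the Cdkn2a and Cdkn2b genes, which encode cell cycle inhibitors of senescence, and histone chaperones of the HIRA group take part in the heterochromatin foci that some senescent human cells form.

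Of the 39 measured genes 12 were higher and 1, Phc2, was lower in proliferating than in senescent cells at a threshold of 0.05 on limma's p, adjusted over all genes by the Benjamini-Hochberg method. The 12 were Cbx1, Suv39h2, Asf1a, Phc1, Cbx6, Dnmt1, Ing1, Kdm1a, Bmi1, Suz12, Cbx2 and Hdac3, with folds between 1.19 and 1.5. Each fold is thus small, and Cbx1 alone reached 1.5-fold.

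The share called, 33.3%, stood beside 20.0% of all genes and 27.4% of genes above background. The share called also varied with signal. Among the 4678 genes whose mean signal lay between the lower and upper quartiles of these genes (8.63 and 10.94), 31.9% were called, and 6 of the 19 listed genes in that range were. At like signal the listed genes were thus called about as often as other genes. Higher in proliferating cells were 30.8% of the listed genes, beside 10.5% of all genes, and lower were 2.56%, beside 9.49% of all genes. In that range of signal 5 of the 19 listed genes were higher (26.3%), beside 17.3% of genes there, and 1 was lower (5.26%), beside 14.6%. These differences in direction were not tested, and the genes were chosen with earlier results of these data known. The median log2 difference was 0.21 over the 39 genes and 0.002 over all genes. The arrays of the groups did not overlap for 28 of the 39, or 71.8% (26 higher, 2 lower in proliferating cells), against 37.0% of all genes. Among the 12500 genes above background they did not overlap for 5957.

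Directions are relative to the other genes on the arrays. With the spike-in controls as the scale, the median over all genes was 0.60, and 15146 of all 18194 genes were called higher. So were 37 of the 39 listed genes, a count that includes Hdac9, which read below background. On that scale Phc2, Ezh1, Eed, Ehmt2 and Kdm5b, which read lower in proliferating cells, turned to 0.23, 0.37, 0.48, 0.54 and 0.51, each below that median. The standard error of each was 0.20 there, and Phc2 and Ezh1 were not called (limma adjusted p of 0.262 and 0.0702). Leaving out proliferating replicate 1, 2 or 3 gave 13, 10 and 8 calls, and leaving out senescent replicate 1, 2 or 3 gave 8, 11 and 10. Cbx1, Phc1, Cbx6, Dnmt1, Kdm1a, Ing1 and Asf1a were called whichever array was left out, and 4 of these 7 (Cbx1, Phc1, Dnmt1 and Kdm1a) under all 14 alternatives run.

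**Figure D1:**
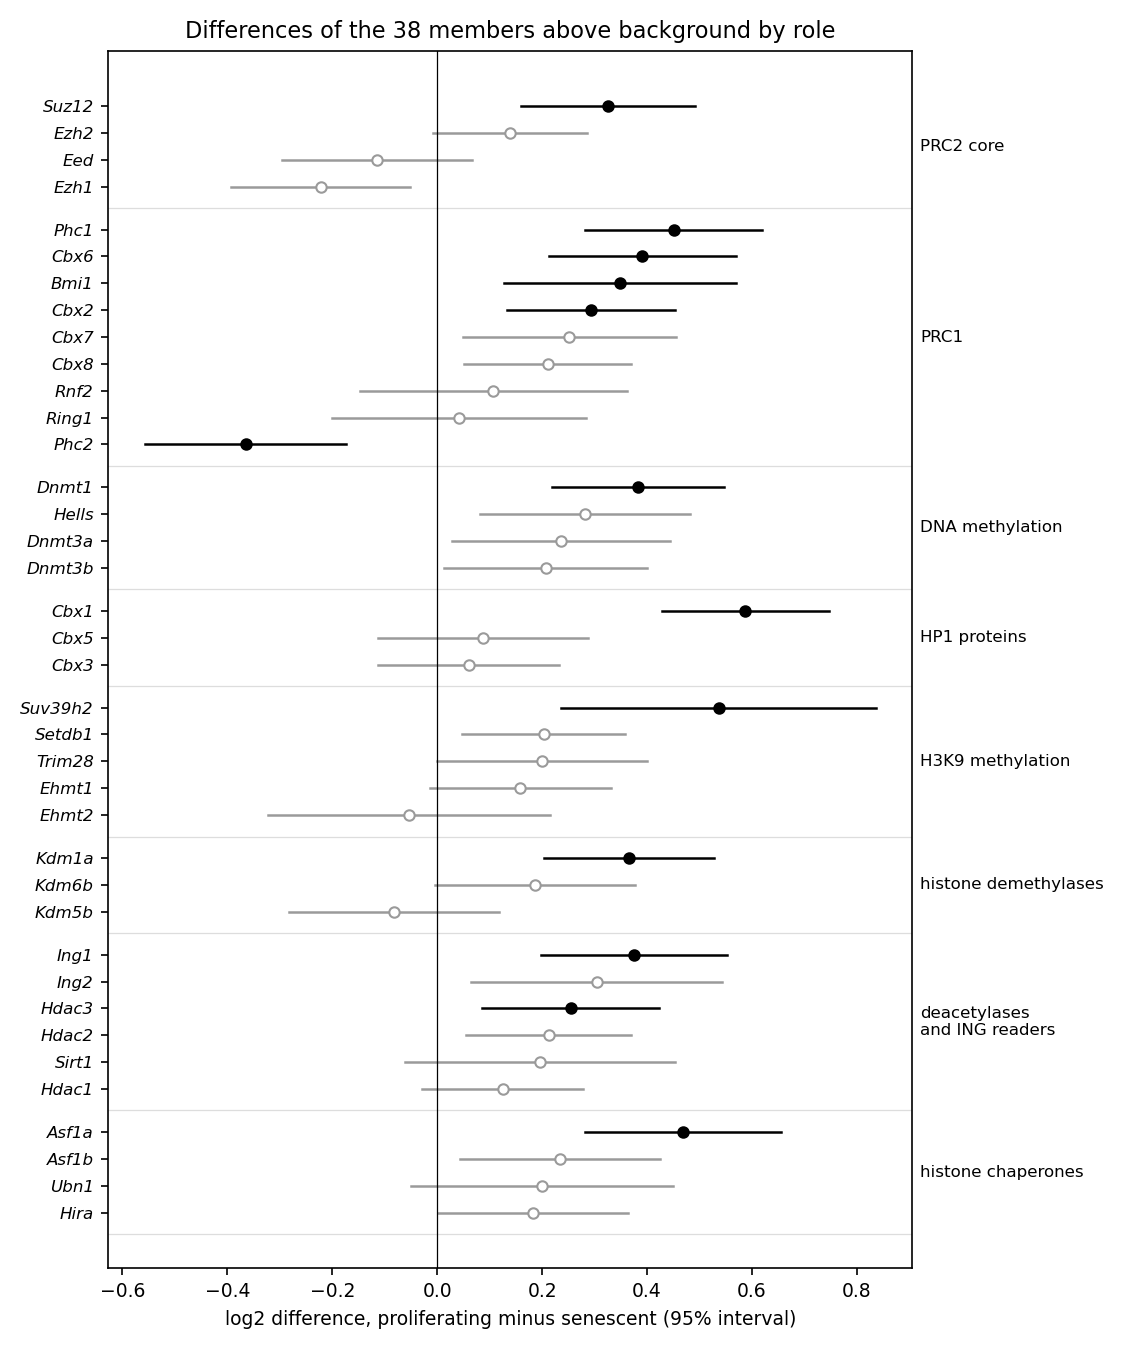
Log2 difference, proliferating minus senescent, of the 38 genes above background, ordered by role, with 95% intervals from limma (3 arrays per group). Filled points passed an adjusted p of 0.05. Of the 13 called genes 12 lie to the right of 0 and Phc2 lies to the left, at -0.37. On the spike-in scale Phc2 read 0.23 ± 0.20 (SE).

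The median over the 39 genes of a gene's deviation from its own mean was 0.11, 0.10 and 0.10 on the proliferating arrays and -0.09, -0.12 and -0.13 on the senescent arrays. Over all genes it lay between -0.02 and 0.02. Genes of cell division stood beside these. All 9 measured (Mki67, Top2a, Ccna2, Ccnb2, Cdk1, Plk1, Bub1, Aurkb and Kif11) were higher in proliferating cells, with a median log2 difference of 0.66 and a summed signal of 14.65 to 14.82 on proliferating and 14.11 to 14.13 on senescent arrays. The median deviation of the cell division genes was 0.19, 0.40 and 0.37 on proliferating replicates 1, 2 and 3, and -0.29, -0.36 and -0.34 on the senescent ones. Proliferating replicate 1 was thus the lowest of its group for the cell division genes. The part of the dividing share of cells in the differences of the chromatin genes was not tested.

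Promoter letters were read because most called genes moved in 1 direction. The windows ran from 250 bases before to 30 bases after an annotated start, from RefSeq on GRCm38.p6, and 35 of the 39 genes had a window. The letters searched on both strands were TTTCCCGC, TTTGGCGC, TTTCGCGC and TTTGCCGC for the E2F motif of cell cycle promoters, TTTGAA and TTCGAA for the cell cycle homology region (CHR), and CCAAT for the CCAAT box, and no motif contains another. E2F letters stood in a window of 5 of the 35 genes (14.3%), against 2.45% of all genes with a window and 4.39% of genes above background. A gene with several starts has more chances of a match. By window, 10.2% of the 49 windows of these genes matched, against 2.12% of all 32851 windows. The 5 were Suz12 and Dnmt1, of 11 called genes with a window, and Ezh2, Hells and Cbx3, of 24 not called. CHR letters were in 25.7% of the 35 genes and 20.9% of all genes with a window, and CCAAT in 42.9% and 39.7%. A match describes these letters and no binding. The windows of the 3 genes higher in proliferating cells with the largest differences among those with a match, and of Phc2 are printed with matches in capitals, at the first listed start where a gene has several. Suv39h2 has TTTGAA 19 bases after its start, Asf1a has CCAAT 17 bases before it, Dnmt1 has TTCAAA (the CHR letters on the other strand) 199 bases before the start with 5 CCAAT matches, and Phc2 has CCAAT on the other strand 72 bases before it. The Dnmt1 window printed holds no E2F letters. Its E2F match (GCGCGAAA, on the other strand) lies 219 bases before start 3 of its 3 starts. Which start these cells use was not tested.
Suv39h2, chr2:3474957-3475236, minus strand: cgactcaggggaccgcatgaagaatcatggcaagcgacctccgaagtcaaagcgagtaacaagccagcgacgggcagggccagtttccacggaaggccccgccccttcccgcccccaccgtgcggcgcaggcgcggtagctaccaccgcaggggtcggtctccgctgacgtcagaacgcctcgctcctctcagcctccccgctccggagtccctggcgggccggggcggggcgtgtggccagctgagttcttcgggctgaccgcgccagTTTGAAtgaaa
Asf1a, chr10:53596711-53596990, plus strand: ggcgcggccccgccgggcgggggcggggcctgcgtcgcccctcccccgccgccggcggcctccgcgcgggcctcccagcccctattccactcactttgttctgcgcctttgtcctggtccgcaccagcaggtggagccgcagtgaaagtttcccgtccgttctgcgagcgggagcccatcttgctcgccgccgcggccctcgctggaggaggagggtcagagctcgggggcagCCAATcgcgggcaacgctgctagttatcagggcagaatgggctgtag
Dnmt1, chr9:20959859-20960138, minus strand: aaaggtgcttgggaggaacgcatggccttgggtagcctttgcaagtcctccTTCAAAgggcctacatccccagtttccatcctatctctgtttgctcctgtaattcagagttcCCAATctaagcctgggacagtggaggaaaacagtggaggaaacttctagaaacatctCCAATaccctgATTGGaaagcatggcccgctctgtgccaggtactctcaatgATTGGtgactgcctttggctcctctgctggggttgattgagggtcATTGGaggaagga
Phc2, chr4:128654452-128654731, plus strand: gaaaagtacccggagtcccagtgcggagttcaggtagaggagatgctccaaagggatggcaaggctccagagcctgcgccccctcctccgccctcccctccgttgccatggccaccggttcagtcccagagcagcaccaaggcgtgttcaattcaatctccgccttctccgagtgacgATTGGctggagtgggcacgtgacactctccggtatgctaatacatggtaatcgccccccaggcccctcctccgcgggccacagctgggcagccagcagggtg

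In PRC2, Suz12, the scaffold subunit, was the called gene. It read 11.12, 11.22 and 11.19 on the proliferating arrays and 10.88, 10.91 and 10.77 on the senescent arrays. Every proliferating value lay above every senescent value. The log2 difference was 0.33 ± 0.07 (SE, n = 3 per group), 1.25-fold, with an adjusted p of 0.0154. Of its 6 probe sets 5 gave a positive difference, and the mean of all 6 gave 0.20 (adjusted p = 0.239). Without proliferating replicate 2 the difference was 0.30 (adjusted p = 0.0602) and without proliferating replicate 3 it was 0.32 (adjusted p = 0.0572), so the call ended in both cases. It also ended when probe sets that can bind several transcripts (_s_at and _x_at) were left out (0.32, adjusted p = 0.132).

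The catalytic subunit genes of PRC2 did not pass. Ezh2, the methyltransferase of dividing cells, read 10.81 to 10.82 on proliferating and 10.64 to 10.71 on senescent arrays, a difference of 0.14 with a 95% interval of -0.01 to 0.29 and an adjusted p of 0.184. Its arrays did not overlap, but the gap was small. Ezh1, the paralog known from resting cells, read 7.88 to 8.05 on proliferating and 8.13 to 8.20 on senescent arrays, a difference of -0.22 (adjusted p = 0.0735, interval -0.39 to -0.05). It passed without proliferating replicate 1 (-0.28, adjusted p = 0.0375), with median centring (-0.29, adjusted p = 0.0301) and among genes above background alone (adjusted p = 0.0427), while on the spike-in scale its sign turned. Eed, which binds the mark that PRC2 makes, differed by -0.11 with overlapping arrays (interval -0.30 to 0.07). The difference between Ezh1 and Ezh2 was itself not tested.

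PRC1 held 5 of the 13 calls, 4 higher and 1 lower in proliferating cells, among 9 genes. Phc1, a polyhomeotic subunit whose SAM domain lets complexes join into chains, read 9.04, 8.92 and 8.98 on the proliferating arrays and 8.57, 8.44 and 8.58 on the senescent arrays. The lowest proliferating value exceeded the highest senescent one. Its log2 difference was 0.45 ± 0.07 (SE), 1.37-fold (adjusted p = 0.00383).

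Its paralog Phc2 went the other way. It read 10.53, 10.73 and 10.78 on the proliferating arrays and 11.07, 10.99 and 11.08 on the senescent arrays, again without overlap. The difference was -0.37 ± 0.08 (SE), 1.29-fold lower (adjusted p = 0.0175), and its dimmer probe set gave -0.28 (adjusted p = 0.124 over all probe sets, and 0.0842 when it was read in place of the brighter one). The call ended without senescent replicate 1 or 3 (-0.35 in both, adjusted p of 0.0623 and 0.0547), and the sign turned on the spike-in scale as given above. The probe set read can bind several transcripts, so a close relative may add to it.

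Among the chromodomain genes of PRC1, whose products read the PRC2 mark, Cbx6 read 11.55, 11.51 and 11.44 on the proliferating arrays and 11.02, 11.08 and 11.22 on the senescent arrays. The groups were apart by at least the spread within either. The difference was 0.39 ± 0.08 (SE), 1.31-fold (adjusted p = 0.00922), and it was 0.28 in its other probe set (adjusted p = 0.0645 when that one was read). Cbx2 read 7.67, 7.58 and 7.73 on the proliferating arrays and 7.35, 7.36 and 7.39 on the senescent arrays. The senescent values were nearly equal, and all lay below the proliferating ones. Its difference was 0.29 ± 0.07 (adjusted p = 0.0205), a call that ended without proliferating replicate 3 (0.26, adjusted p = 0.0886) or senescent replicate 1 or 2 (0.29 in both, adjusted p of 0.0686 and 0.0562). It also ended with median centring (0.22, adjusted p = 0.0658) and in the mean with its other probe set, which was below background and gave -0.10 (mean 0.095, adjusted p = 0.454).

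Bmi1, the ring finger partner that stabilises PRC1 and is known for repressing Cdkn2a, read 11.63, 11.59 and 11.61 on the proliferating arrays and 11.25, 11.45 and 11.09 on the senescent arrays. The proliferating arrays were nearly equal and the senescent ones were spread, all below them. The difference was 0.35 ± 0.10 (SE), 1.27-fold (adjusted p = 0.0368), and 0.32 in its other probe set. The call ended when any proliferating array was left out (0.34, 0.36 and 0.35 without replicate 1, 2 and 3, with adjusted p of 0.0803, 0.0778 and 0.0954) and without senescent replicate 1 or 3 (0.34 and 0.26, adjusted p of 0.101 and 0.0874). It also ended with median centring (0.28, adjusted p = 0.0734).

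The other PRC1 genes did not pass. Cbx7 and Cbx8, further chromodomain genes, differed by 0.25 (adjusted p = 0.0863, interval 0.05 to 0.45) and 0.21 (adjusted p = 0.0694, interval 0.05 to 0.37), with arrays that did not overlap. Cbx7 passed without senescent replicate 3 (0.33, adjusted p = 0.0375). Ring1 and Rnf2, the ubiquitin ligase subunits, differed by 0.04 (interval -0.20 to 0.28) and 0.11 (interval -0.15 to 0.36), with overlapping arrays.

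At the locus that PRC1 and PRC2 are known to repress, Cdkn2a read 10.55, 10.63 and 11.16 on the proliferating arrays and 11.25, 10.74 and 11.09 on the senescent arrays, which overlap (difference -0.24 ± 0.18, SE, adjusted p = 0.418, and 0.35 on the spike-in scale). Cdkn2b read 10.58, 10.36 and 10.47 on the proliferating arrays and 11.07, 10.96 and 10.96 on the senescent arrays. It was lower in proliferating cells (-0.53 ± 0.08, adjusted p = 0.00274). On the spike-in scale that difference was 0.06, near 0.

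**Figure D2:**
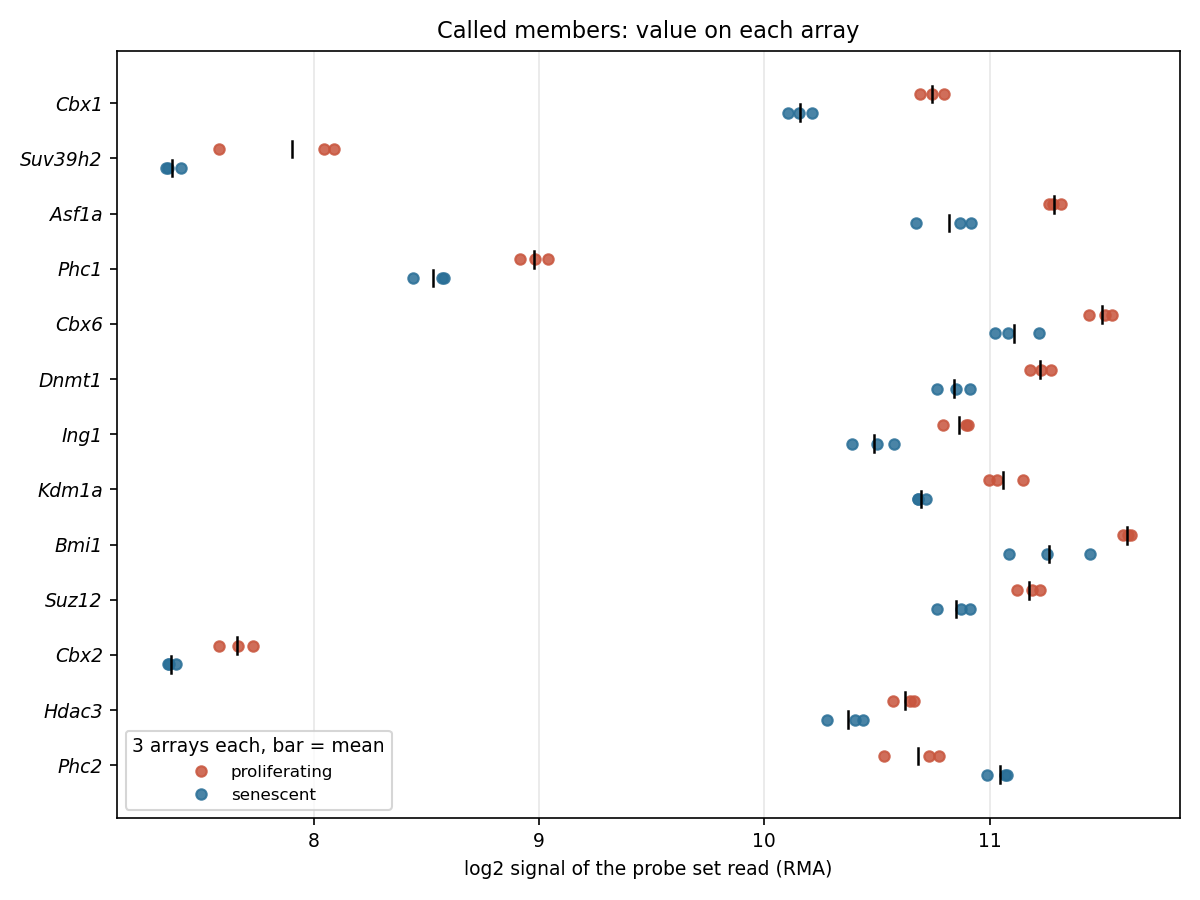
Log2 signal of the probe set read for each of the 13 called genes on each array, proliferating above senescent, 3 arrays each, with a bar at the group mean. In all 13 the groups do not overlap, and Phc2 is the gene with its senescent points to the right. Signals of different genes come from different probes and give no order of RNA amounts.

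Of the DNA methylation genes Dnmt1, the enzyme that copies methylation onto new DNA strands, was called. Its values were 11.18, 11.23 and 11.27 on the proliferating arrays and 10.85, 10.77 and 10.91 on the senescent arrays. There was no overlap, and the difference was 0.38 ± 0.07 (SE), 1.30-fold (adjusted p = 0.00709). The other 2 probe sets gave 0.32 and 0.36 (adjusted p of 0.0267 and 0.0204 over all probe sets). Its first promoter window held a CHR match and 5 CCAAT matches, and its E2F match stood at another of its starts.

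Hells, a chromatin remodeller needed for DNA methylation, read 11.11 to 11.22 on proliferating and 10.76 to 11.03 on senescent arrays. Its difference of 0.28 narrowly missed the threshold (adjusted p = 0.0551, interval 0.08 to 0.48), passed without senescent replicate 2 (0.35, adjusted p = 0.0375), and was 0.03 and 0.003 in its 2 dimmer probe sets. The de novo methyltransferase genes Dnmt3a and Dnmt3b differed by 0.24 (adjusted p = 0.113) and 0.21 (adjusted p = 0.134), also without overlap of the arrays. Dnmt3a passed without proliferating replicate 2 (0.32, adjusted p = 0.0482). Its 5 probe sets disagreed, with 1 at 0.57 (adjusted p = 0.00613 over all probe sets) and 3 between -0.09 and -0.04.

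HP1 proteins bind the methyl mark of heterochromatin, and among their 3 genes Cbx1, which encodes HP1 beta, had the largest difference of all genes listed here. It read 10.74, 10.69 and 10.80 on the proliferating arrays and 10.10, 10.16 and 10.21 on the senescent arrays. The gap between the groups was wider than the range within either. The difference was 0.59 ± 0.07 (SE), 1.5-fold (adjusted p = 8.86e-04), and the other 4 probe sets gave 0.33 to 0.73. Cbx5 (HP1 alpha) and Cbx3 (HP1 gamma) had overlapping arrays. Cbx5 differed by 0.09 (interval -0.11 to 0.29), with 0.22 at most in its other probe sets. Cbx3 differed by 0.06 (interval -0.11 to 0.23) in its only probe set with this symbol alone. That probe set was dimmer, with a mean of 7.24, beside 10.45 for Cbx1 and 11.01 for Cbx5. The intervals of Cbx3 and Cbx5 lie below that of Cbx1, 0.43 to 0.75, but the differences between the genes were not tested.

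Among the writers of that mark, Suv39h2, a methyltransferase of pericentric heterochromatin, read 7.58, 8.05 and 8.09 on the proliferating arrays and 7.41, 7.35 and 7.34 on the senescent arrays. Proliferating replicate 1 lay close to the senescent arrays and the other 2 lay well above them. The difference was 0.54 ± 0.13 (SE), 1.45-fold (adjusted p = 0.0223), and the other 2 probe sets gave 0.87 and 0.30. The call held without proliferating replicate 1 (0.70, adjusted p = 9.12e-04). It ended without proliferating replicate 2 (0.47, adjusted p = 0.0656) or 3 (0.44, adjusted p = 0.0713) and without senescent replicate 1, 2 or 3 (0.56, 0.53 and 0.52, adjusted p of 0.0590, 0.0768 and 0.0726).

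Setdb1, which silences repeat elements, and Trim28, the corepressor that recruits it, differed by 0.20 each (adjusted p of 0.0722 and 0.160). Ehmt1 and Ehmt2, the partner enzymes of euchromatic silencing, differed by 0.16 (interval -0.01 to 0.33) and -0.05 (interval -0.32 to 0.22). The arrays of Setdb1 and Ehmt1 did not overlap, and those of Trim28 and Ehmt2 did. In its dimmer probe set Trim28 differed by -0.01.

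Of the histone demethylases, Kdm1a, which removes methyl groups that mark active genes and works in complexes with deacetylases, read 11.15, 11.03 and 11.00 on the proliferating arrays and 10.68, 10.68 and 10.72 on the senescent arrays. The groups were clearly apart. The difference was 0.37 ± 0.07 (SE), 1.29-fold (adjusted p = 0.00819), and 0.40 in its other probe set. Kdm6b, which removes the PRC2 mark and is known to be induced at the Cdkn2a locus under oncogene stress, differed by 0.19 (adjusted p = 0.169, interval -0.01 to 0.38). Kdm5b, a demethylase that acts with retinoblastoma protein at cell cycle genes in senescence, differed by -0.08 (adjusted p = 0.589, interval -0.28 to 0.12), with overlapping arrays.

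Among deacetylases and their partners, Ing1, a reader of active histone marks in the Sin3 deacetylase complex, read 10.79, 10.90 and 10.90 on the proliferating arrays and 10.39, 10.58 and 10.50 on the senescent arrays. No values overlapped. The difference was 0.38 ± 0.08 (SE), 1.30-fold (adjusted p = 0.0111). Another bright probe set gave 0.32, a dim one 0.05, and the mean of all 4 gave 0.21 (adjusted p = 0.114). Its relative Ing2 differed by 0.30 without overlap and did not pass (adjusted p = 0.0786).

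Hdac3, the deacetylase of the nuclear receptor corepressor complex, read 10.57, 10.65 and 10.66 on the proliferating arrays and 10.40, 10.28 and 10.44 on the senescent arrays. The groups were separated by a small gap. The difference was 0.25 ± 0.07 (SE), 1.19-fold (adjusted p = 0.0439). This call ended whichever array was left out, with differences of 0.28, 0.24 and 0.24 without proliferating replicate 1, 2 or 3 and 0.27, 0.21 and 0.29 without senescent replicate 1, 2 or 3, and adjusted p between 0.0510 and 0.143, and with median centring (0.19, adjusted p = 0.146). Hdac1 and Hdac2 differed by 0.12 (adjusted p = 0.252) and 0.21 (adjusted p = 0.0645), without overlap. Sirt1, an NAD-dependent deacetylase that acts on p53 among other proteins, differed by 0.20 with overlapping arrays (interval -0.06 to 0.45). Hdac9 read 4.30 to 4.74 on proliferating and 4.39 to 4.54 on senescent arrays, below background throughout, so no difference is given.

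The 4 histone chaperone genes all had positive differences, and Asf1a was called. Positive differences were also common elsewhere, in 34 of the 39 listed genes, beside 9179 of all 18194 genes. Asf1a passes histones H3 and H4 to the HIRA complex, which deposits histone H3.3 outside replication. It read 11.27, 11.28 and 11.32 on the proliferating arrays and 10.87, 10.92 and 10.68 on the senescent arrays. The proliferating arrays were tight and all above the senescent ones. The difference was 0.47 ± 0.08 (SE), 1.38-fold (adjusted p = 0.00507). Its other probe set was below background and gave no call in the mean of both (0.21, adjusted p = 0.185).

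Asf1b, the paralog tied to replication, read 10.24, 10.43 and 10.41 on the proliferating arrays and 10.20, 10.15 and 10.02 on the senescent arrays. The groups were apart by a narrow margin, since proliferating replicate 1 lay just above the senescent arrays. The difference of 0.23 did not pass (adjusted p = 0.0889, interval 0.04 to 0.42) and passed without proliferating replicate 1 (0.29, adjusted p = 0.0488). Hira, the histone H3.3 chaperone itself, differed by 0.18 (adjusted p = 0.156, interval 0.001 to 0.36), and its partner Ubn1 by 0.20 (adjusted p = 0.262, interval -0.05 to 0.45), with overlapping arrays for Ubn1. The difference between Asf1a and Asf1b was not tested.

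**Figure D3:**
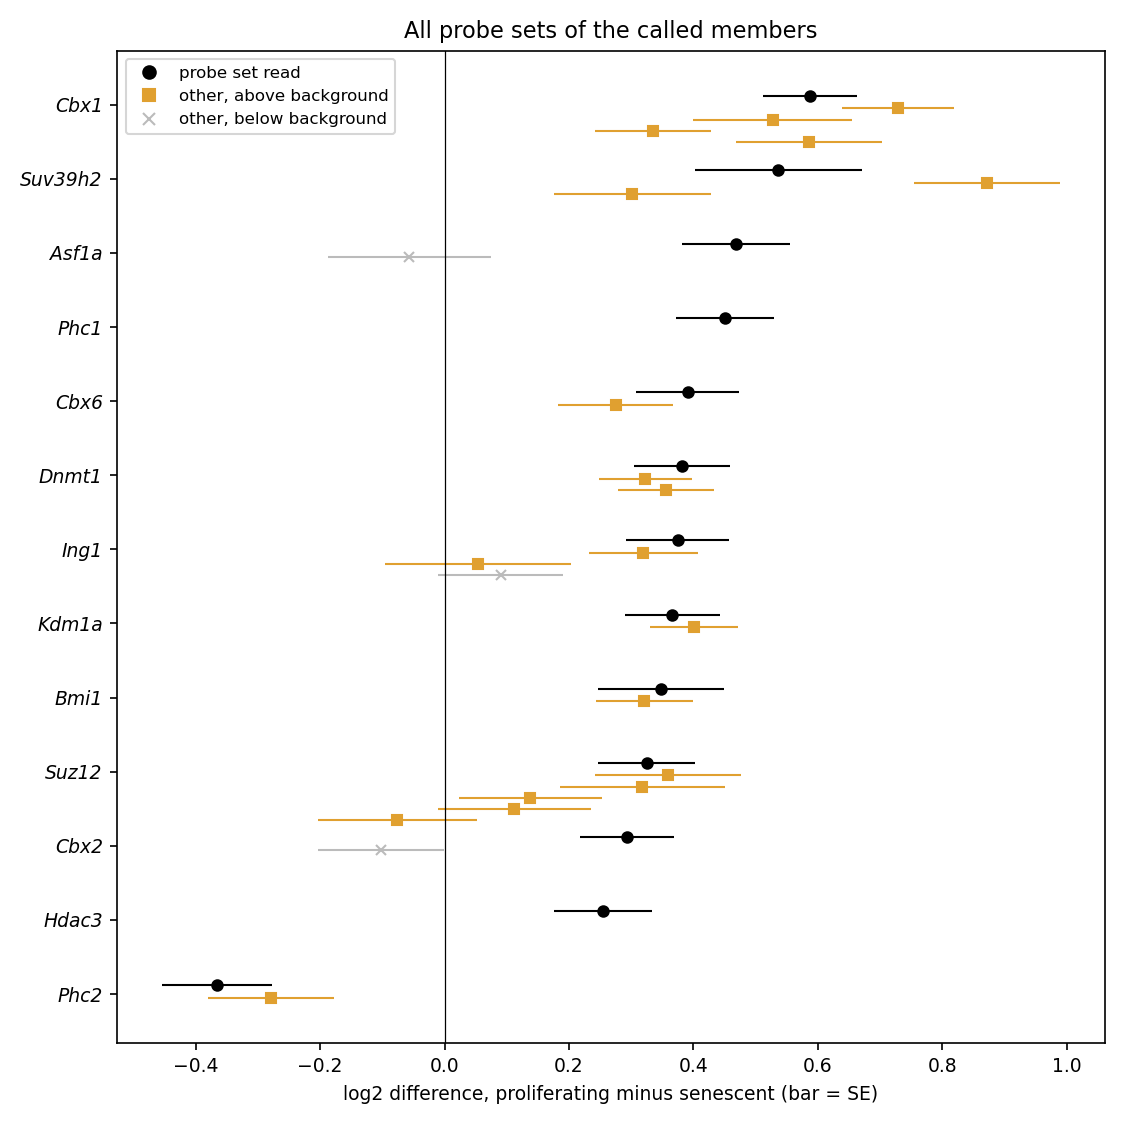
Log2 difference, proliferating minus senescent, with its standard error, in every probe set of the 13 called genes. Black points are the probe sets read, orange squares other probe sets above background and grey crosses those below it. Of 19 other probe sets above background 18 have the sign of the probe set read, the exception being 1 of Suz12.

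Most of the genes could be checked in a further probe set. The 39 genes had 99 probe sets, and 29 had more than 1. For the 9 called genes with another probe set above background, 18 of 19 such probe sets had the sign of the probe set read. For the genes that were not called, 18 of 24 did. Phc1 and Hdac3 had 1 probe set each. The probe sets read for 7 of the 13 called genes were of the _s_at or _x_at type.

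Other genes with the same roles were set beside these. Of 97 listed, 89 were measured, with 23 higher and 4 lower in proliferating cells and a median log2 difference of 0.15, against 0.002 for all genes. The share called was 30.3%, beside 20.0% of all genes and 27.4% of genes above background, where 85 of the 89 read. Higher were 25.8%, beside 10.5% of all genes. Among the 12500 genes above background 1839 were higher and 1591 lower. The small counts by role that follow are to be read beside these shares. On the spike-in scale 82 of the 89 were called, all higher, beside 15146 of all 18194 genes called higher. The 4 lower genes, Aebp2, Scmh1, Cdyl2 and Sirt5, were at 0.13, 0.14, 0.16 and 0.12 on that scale. Each value is smaller than the standard error that Phc2 had there, 0.20, so these signs are uncertain. The count of 27 calls fell whichever array was left out, as did the count of 3645 over all genes. It was 19, 14 and 16 without proliferating replicate 1, 2 or 3 and 14, 17 and 17 without senescent replicate 1, 2 or 3.

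Accessory PRC2 genes gave 3 calls among 7. Mtf2, a Polycomb-like protein that guides PRC2 to CpG-rich DNA, was higher by 0.56 (adjusted p = 0.00347), and Rbbp7, a histone-binding subunit, by 0.24 (adjusted p = 0.0355). Aebp2, a DNA-binding cofactor of PRC2, was lower by 0.47 in proliferating cells, at 11.30 against 11.77 in senescent cells (adjusted p = 0.00224). Among 12 further PRC1 and deubiquitinase genes, Pcgf5, a ring finger subunit of variant PRC1, was higher by 0.37, Asxl1 and Bap1, partners in removing ubiquitin from histone H2A, by 0.35 and 0.34, and Scmh1 was lower by 0.46.

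For DNA methylation, 5 of 11 further genes were higher and 0 lower. Mbd4, a repair glycosylase that binds methylated DNA, was higher by 0.40, Uhrf2 by 0.36, Tet2, which oxidises methylated cytosine, by 0.35, Mbd3 by 0.34, and Uhrf1, which brings Dnmt1 to freshly replicated DNA, by 0.28. Of 11 further heterochromatin genes Smchd1 was higher by 0.29 and Cdyl2 lower by 0.44. Of 13 further demethylase genes 5 were higher and 0 lower, with Kdm7a at 0.48, Kdm5a at 0.32, Kdm2a at 0.30, Kdm4b at 0.27 and Kdm3b at 0.27.

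Of 23 further deacetylase genes and partners, Hdac8 had the largest difference, with 6.60 in proliferating and 5.82 in senescent cells (0.79 ± 0.09, SE, adjusted p = 8.88e-04). Hdac8 had only 1 probe set, and its senescent arrays, at 5.66, 5.97 and 5.82, lay just above the background of 5.57. Ing3, a subunit of an acetyltransferase complex, was higher by 0.48, Hdac6, a cytoplasmic tubulin deacetylase, by 0.29 and Sin3a by 0.25, while Sirt5, a mitochondrial sirtuin, was lower by 0.48. Of 12 further histone chaperone genes 3 were higher. Hirip3, a protein that binds HIRA, was higher by 0.69 (adjusted p = 7.30e-04), Anp32e, a chaperone that removes the variant H2A.Z, by 0.52, and Nasp, which keeps a pool of histones H3 and H4 for replication, by 0.38.

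**Figure D4:**
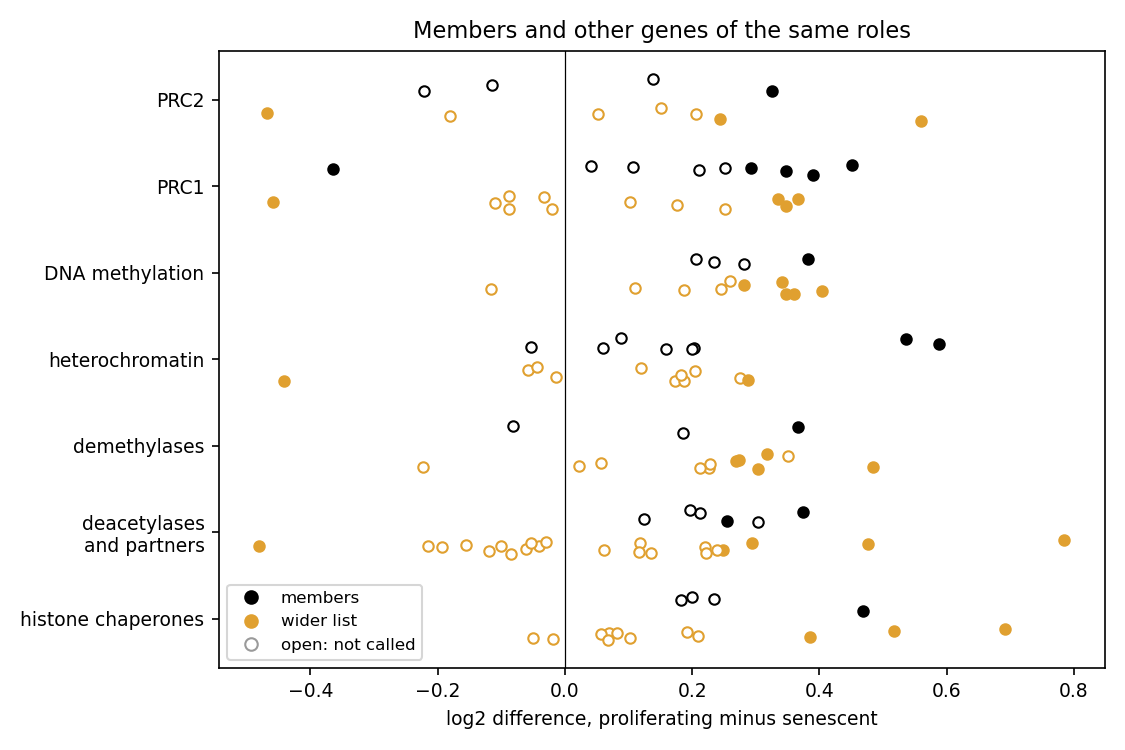
Log2 difference, proliferating minus senescent, of the 38 listed genes above background (members, black) and of other genes with the same roles that read above background (wider list, orange), with vertical scatter added for legibility. Filled points passed an adjusted p of 0.05. Filled points lie mostly to the right of 0, and the 5 to its left are Phc2, Aebp2, Scmh1, Cdyl2 and Sirt5. On the spike-in scale these 5 read 0.12 to 0.23. Phc2, at 0.23, had a standard error of 0.20 there, so these signs are uncertain.

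**Figure D5:**
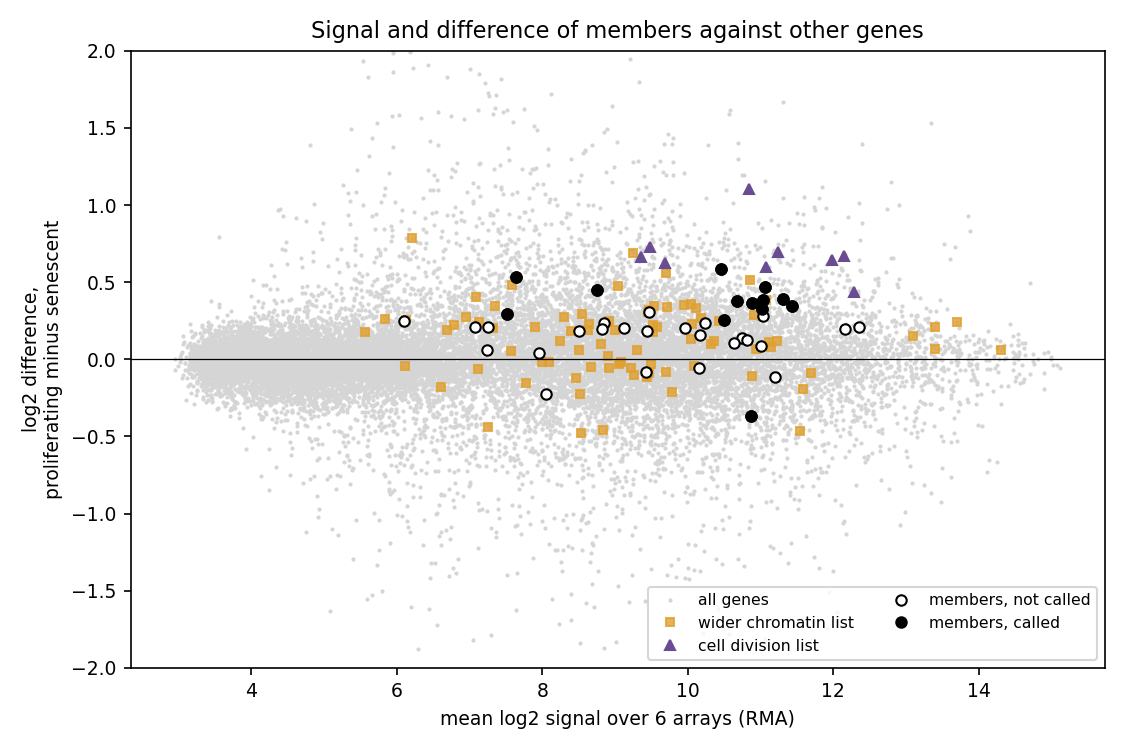
Log2 difference, proliferating minus senescent, against mean log2 signal over 6 arrays, for all genes (grey), the listed genes (members, black and open circles), other chromatin genes (orange squares) and cell division genes (purple triangles). The 46 genes beyond 2 log2 units are outside the frame. The called genes lie between 0.25 and 0.59, apart from Phc2 at -0.37, and the cell division genes lie between 0.44 and 1.10. On the spike-in scale Phc2 read 0.23 ± 0.20 (SE).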

How the data were processed

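RNA of 6 samples was measured on Affymetrix mouse arrays. The deposited values are log2 expression per probe set, made with RMA (background correction, quantile normalization, summary of probes) per the submitters' processing notes. The RMA version and any batches were not given in what was used here. Quantile normalization removes shifts shared by most genes, so differences are relative to the array, and RMA compresses differences of dim probe sets. The number of arrays limits the precision, and the median standard error of a difference was 0.0884.

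Of 45101 probe sets, 34958 had 1 symbol in the platform annotation, 932 had several and were named nowhere, and 64 are controls. Symbols were updated through Entrez numbers with a RefSeq table (GRCm38.p6), which held 34754. Groups came from sample titles. Differences, proliferating minus senescent, were fitted over 18194 genes with lmFit and eBayes of limma 3.58.1 (R 4.3.3), without covariates, and p-values were Benjamini-Hochberg adjusted. On simulated data of 18194 genes for this comparison the fit was tested. Figures used matplotlib 3.10.9. All 40 listed genes are accounted for, with per-array values for called ones, and up to 4 called genes per role of the wider list by size were named, with Uhrf1, Kdm3b and Sin3a added after their values were seen. The genes and lists were chosen with earlier results of these data known. Alternatives covered the probe set per gene, a background filter, the variance prior, array scaling, symbols, a replicate block and each array left out.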

Additional observations from a re-analysis of the deposited data

How the results depend on the processing

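Under 8 alternatives and with each of the 6 arrays left out, calls over all genes (3645) ranged from 2433 to 4229, except for 15321 after scaling to the poly-A spike-ins, and those lower (1726) were 175 with the spike-ins, 2298 with median centring and 1128 without senescent replicate 1. Calls among the 39 genes (13) were 9 with the mean of all probe sets or without _s_at and _x_at probe sets, 18 among genes above background, 17 with a robust variance trend, 11 with median centring, 37 with the spike-ins, and 8 to 13 with an array left out. Calls among the 89 other chromatin genes (27) were 16 with the mean of all probe sets, 15 with median centring, 82 with the spike-ins and 14 to 19 with an array left out. The share of calls that were higher was 52.6%, 36.8% with median centring and 98.9% with the spike-ins. Replicate numbers did not pair the arrays (deviations of same-numbered arrays correlated at 0.09, -0.07 and -0.15). With them as a replicate block, calls were 2935 over all genes, 11 among the 39 and 17 among the 89, Bmi1, Cbx2 and Hdac3 lost theirs and Ing2 gained 1. Signs turned with the spike-ins for Ezh1 (0.37), Eed (0.48), Phc2 (0.23), Ehmt2 (0.54) and Kdm5b (0.51), with median centring for Ring1 (-0.0271) and Cbx3 (-0.0087), and without _s_at and _x_at probe sets for Trim28 (-0.0124). With an array left out Ring1 ranged from -0.0537 to 0.148, Rnf2 from -0.014 to 0.207 and Ehmt2 from -0.158 to 0.0391. Median centring ended the calls of Bmi1, Cbx2 and Hdac3, while Ezh1 gained 1. Among genes above background Ezh1, Cbx8, Hells, Setdb1 and Hdac2 gained a call, and with the robust trend Hells, Hdac2, Ing2 and Asf1b did. The causes were not tested. Hdac9 is below background and was not followed.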
